A study of Mus musculus with 4 samples.

Results

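Guanylate-binding proteins (GBPs) and immunity-related GTPases (IRGs) were examined in type 2 conventional dendritic cells (cDC2) labelled wild type (WT) or Id2 knockout (Id2 KO). The 10 genes Gbp2, Gbp3, Gbp5, Gbp7, Gbp8, Gbp9, Irgm1, Irgm2, Igtp and Iigp1 were chosen by name, and only probe sets annotated to a single gene symbol were assigned to a gene. Of the 10 genes, 7 had such a probe set, 1 each, among 19938 genes in all. The probe set of Gbp2 was shared with Gbp2b, and Irgm2 and Igtp shared 1 probe set, so these 3 genes have no level of their own here. Of the 7 genes, 6 lay above the intensity filter (a mean log2 intensity over 6.77, the 40th percentile of all genes) and were tested. Iigp1 lay below it and is described by its values.

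The cells came by cell sorting from Zbtb46-GFP chimeric mice, whose green fluorescence reports on Zbtb46, a gene of the conventional dendritic cell lineage. Total RNA was amplified and hybridized to 2 arrays of WT and 2 arrays of Id2 KO cDC2, all 4 from Zbtb46-GFP chimeras and without a stated treatment, and the last 2 are called the KO arrays below after their label. The tissue of origin is uncertain: the sample labels give the spleen, while the series' design text calls the cells splenic and names bone marrow as what they were sorted from. The age of the mice, the way the chimeras were made, the host cells that remained and the deleted part of Id2 are not given in the sources used here. Nothing in the labels ties a replicate to its own mouse. The p-values therefore reflect only how far these samples spread, which may be technical.

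The GBPs and IRGs are 2 families of GTPases that interferons, above all interferon-γ, induce in many cell types. GBPs assemble on pathogen vacuoles and on bacteria in the cytosol, and several of them favour inflammasome activation. Effector IRGs such as Iigp1 damage the membrane of a parasite's vacuole, while the regulatory IRGs Irgm1, Irgm2 and Igtp sit on the cell's own membranes and keep the effectors inactive there. Id2 binds E proteins, a class of transcription factors, and keeps them from DNA.

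Id2 itself, the targeted gene, had log2 intensities of 9.14 and 9.08 in the WT arrays and of 8.71 and 8.97 in the KO arrays. Its difference of -0.27 did not pass (limma, adjusted p = 0.172), and a probe set outside the deleted part would check nothing. Directions below therefore rest on the labels. Of all 11963 genes tested, 962 changed (8.04%, of which 5.53% were higher and 2.52% lower). The dendritic cell genes Itgax and H2-Ab1 and the cDC2 gene Sirpa were bright in all 4 arrays, with log2 intensities of at least 12.81, 13.75 and 12.14. Xist read 11.96 in both WT arrays and 6.67 and 6.68 in the KO arrays, a log2 difference of -5.28. The Y-linked Kdm5d read 5.72 and 5.53 in WT and 8.08 and 8.50 in the KO arrays (2.66). By these genes the WT arrays look female and the KO arrays male. Genotype and sex therefore cannot be told apart for any gene below, whatever its chromosome. Of 11 tested cDC2 markers 5 were lower and 1 higher (median -0.37), and Zbtb46 had a difference of -1.02 (limma, adjusted p = 0.000135). All 11 tested neutrophil markers were lower (median -2.73), while 10 of 11 tested cell cycle genes were higher.

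Promoter sequences were compared for the members that have one listed. RefSeq start sites (GRCm38.p6) were found for 7 of the 10 genes, 8 start sites in all, and the 250 bases upstream of each were searched on both strands. Factors such as IRF1 bind the interferon-stimulated response element (ISRE, here GAAA, any 2 bases, then GAAA). It was present upstream of all 7 genes, at 7 of the 8 start sites, against 2.98% of 32851 promoters. The gamma-activated site (GAS, TTCNNNGAA) is a motif of interferon-γ-responsive promoters. It was present upstream of 4 of the 7 genes, Gbp5, Gbp7, Irgm2 and Igtp, at 4 of the 8 start sites, against 7.02%. An ETS-IRF composite (GGAA, any 2 bases, then GAAA) overlaps the GAS in Irgm2 and Igtp. It occurred at 3 of the 7 genes, Gbp5, Irgm2 and Igtp, and 3 of the 8 start sites, against 2.3%. The E-boxes CAGCTG and CAGGTG, to which E proteins bind, occurred at 0 of the 8 start sites, against 13% and 17.2%. For the E-boxes, 8 start sites are too few to show a lack, since shares of 13% and 17.2% can give 0. Other E-box forms were not searched, and the stretches of Irgm2 and Igtp are alike and not independent. All the motifs above are matches of letters and not measured binding.

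The stretches are shown because every member measured by a probe set of its own and listed with a start site carries an ISRE, while their values below differ. Each is written 5′ to 3′ in the direction of the gene and ends at the base before the annotated start. Capitals mark the ISRE and GAS matches. All 250 bases are given for Gbp5, whose ISRE lies far from the start, and the last 110 for the others.
Gbp5, plus strand, chr3:142496684-142496933: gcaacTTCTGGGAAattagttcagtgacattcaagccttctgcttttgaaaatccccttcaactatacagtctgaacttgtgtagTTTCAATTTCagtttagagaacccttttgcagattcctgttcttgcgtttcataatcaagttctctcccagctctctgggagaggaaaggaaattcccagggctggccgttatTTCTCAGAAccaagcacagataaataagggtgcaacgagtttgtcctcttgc
Gbp3, plus strand, chr3:142559934-142560043: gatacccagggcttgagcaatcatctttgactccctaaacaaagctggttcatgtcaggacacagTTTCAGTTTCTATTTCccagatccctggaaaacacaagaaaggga
Gbp7, plus strand, chr3:142530226-142530335: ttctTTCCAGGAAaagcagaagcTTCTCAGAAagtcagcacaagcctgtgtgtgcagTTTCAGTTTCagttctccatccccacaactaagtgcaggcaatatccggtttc
Gbp2, plus strand, chr3:142620553-142620662: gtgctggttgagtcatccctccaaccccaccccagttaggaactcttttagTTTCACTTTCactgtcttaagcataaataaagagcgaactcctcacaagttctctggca
Irgm1, minus strand, chr11:48871421-48871530: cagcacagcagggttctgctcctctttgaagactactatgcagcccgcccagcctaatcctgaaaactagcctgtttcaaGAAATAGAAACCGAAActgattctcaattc
Irgm2, plus strand, chr11:58214867-58214976: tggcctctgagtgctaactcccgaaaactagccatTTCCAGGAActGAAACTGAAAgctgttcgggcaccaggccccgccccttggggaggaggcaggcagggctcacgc
Igtp, plus strand, chr11:58199446-58199555: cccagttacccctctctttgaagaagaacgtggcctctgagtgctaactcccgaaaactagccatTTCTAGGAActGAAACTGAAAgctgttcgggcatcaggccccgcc

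The ISRE of Gbp5 began 165 bases upstream of the start, and a GAS began 52 bases upstream. In Gbp2 and Gbp7 the ISRE began 59 and 53 bases upstream. Gbp3 and Irgm1 each held a pair of overlapping ISRE matches, which began 45 and 39 bases upstream in Gbp3 and 30 and 24 bases upstream in Irgm1. In Irgm2 and Igtp a GAS was followed by an ISRE in the same spacing, which began 64 bases upstream in Irgm2 and 34 in Igtp. The other start site of Gbp3 held no ISRE or GAS in its window.

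**Figure D1:**
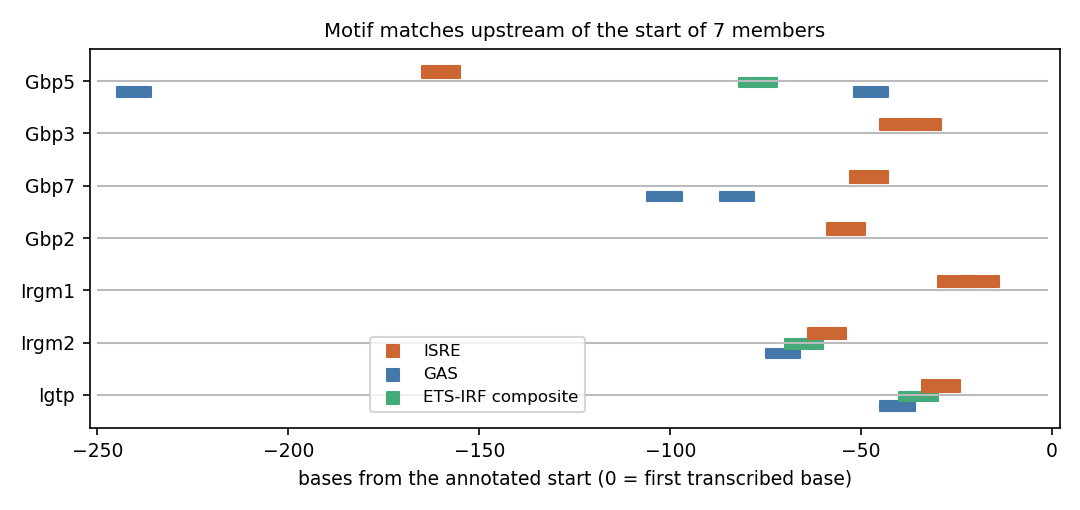
Positions of motif matches in the 250 bases upstream of the annotated start of 7 genes (horizontal axis, bases from the start; 1 line per gene, for Gbp3 the start site with matches). The ISRE (orange) lies within 64 bases of the start in each gene except Gbp5, where it begins at 165, a GAS (blue) is seen in Gbp5, Gbp7, Irgm2 and Igtp, and the ETS-IRF composite (green) in Gbp5, Irgm2 and Igtp.

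Gbp5, whose product favours assembly of the NLRP3 inflammasome, was the single tested member that changed. Its intensity in WT was 278 and 334, while the KO arrays gave 474 and 389. Both KO arrays lay above both WT arrays. On the log2 scale Gbp5 rose from 8.25 ± 0.19 to 8.75 ± 0.20 (SD, n = 2 each), a difference of 0.49 (95% interval 0.22 to 0.77, 1.41-fold; limma, adjusted p = 0.0389). It was thus 1 of 6 tested members called (1 higher, 0 lower), beside 8.04% of all genes tested (5.53% higher and 2.52% lower). The call was lost without WT replicate 1 (0.36, adjusted p = 0.281) and without KO replicate 1 (0.35, adjusted p = 0.15), while the adjusted p ran from 0.00837 to 0.281 across alternatives. It was also lost with no filter (adjusted p = 0.0652) and with all probe sets tested together (adjusted p = 0.0512).

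Markers of other cells differed between the same arrays, where 5.53% of all genes tested were higher and 2.52% lower. The log2 of the summed intensity of the 11 neutrophil markers was 14.12 and 14.17 in WT and 10.52 and 11.22 in the KO arrays. That of the 8 B cell markers on the array (6 of 7 tested higher) was 10.06 and 10.10 in WT and 10.96 and 11.20 in the KO arrays, and that of the 11 cell cycle genes was 13.02 and 13.01 against 14.08 and 13.75. Of 8 tested monocyte and macrophage markers 5 were lower and 0 higher (median -0.41). The sums over 11 markers were 12.80 and 12.85 in WT and 12.55 and 12.58 in the KO arrays. The brightest genes of a list weigh most in such a sum and can hide dimmer ones. Chil3 was at -2.02 (log2 intensities of 8.27 and 8.68 in WT), while the brighter Cd68 was at -0.06 (10.99 and 11.03). The T and NK cell list held 1 lower gene of 6 tested, Cd3d, with sums over 10 markers of 10.62 and 10.70 against 10.58 and 10.53. Of 7 tested plasmacytoid dendritic cell markers 3 were higher and 0 lower. The sums over 7 markers were 11.24 and 11.21 in WT and 11.45 and 11.32 in the KO arrays. Of 5 tested markers of type 1 conventional dendritic cells 1 was lower, Tlr3, and 0 higher. The sums over 8 markers were 13.03 and 13.01 against 12.96 and 12.97. Wdfy4, at 12.52 and 12.50 in WT, weighs most in these sums. The median difference was -0.05 over the 5 tested markers and -0.14 over all 8. No background was measured, so no marker can be said to be at 0. Their part in the result for Gbp5, or for any gene below, was not tested. In such bulk samples, fewer cells of a type and less RNA per cell cannot be told apart.

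The other measured GBPs of the same cluster, on chromosome 3 in RefSeq, gave no difference between the groups beyond their spread. Gbp7, which has been tied to autophagy and to assembly of the phagocyte oxidase, had intensities of 520 and 590 in the WT arrays and of 779 and 430 in the KO arrays. One KO array lay above both WT arrays and the other below both. Its log2 difference was 0.06 (95% interval -0.44 to 0.57; limma, adjusted p = 0.916). Without KO replicate 2 Gbp7 was higher by 0.49 and passed (adjusted p = 0.0194), and without KO replicate 1 it was lower by a difference of -0.37 that did not pass (adjusted p = 0.095), while across alternatives the adjusted p ran from 0.0194 to 0.989.

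Gbp3, another GBP that gathers on pathogen vacuoles, showed the same layout. It read 298 and 290 in WT, and 333 and 228 in the KO arrays, so the WT values lay between those of the other group. The log2 difference was -0.09 (95% interval -0.44 to 0.25; limma, adjusted p = 0.792). The sign turned without KO replicate 2 (0.18, adjusted p = 0.324), and without KO replicate 1 the difference was -0.37 (adjusted p = 0.059), neither of which passed.

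The probe set shared by Gbp2 and Gbp2b cannot be assigned to either gene. In WT it read 158 and 179, and 253 and 161 in the KO arrays, where the groups overlapped. Its log2 difference was 0.26 (95% interval -0.16 to 0.69) and did not pass when all 16273 probe sets above the filter level were tested (limma, adjusted p = 0.502). The probe set of Gbp2b alone lay below the filter, at 78.3 and 70.2 in WT and 77.9 and 81.0 in the KO arrays.

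Of the GBPs on chromosome 5, Gbp8 and Gbp9 read lower in both KO arrays than in both WT arrays, and neither passed the test. Gbp9 had intensities of 1244 and 1275 in the WT arrays and of 1009 and 1066 in the KO arrays, and the groups did not overlap. Its log2 means were 10.30 ± 0.03 and 10.02 ± 0.06 (SD, n = 2 each), a difference of -0.28 (95% interval -0.46 to -0.10, not adjusted) with an adjusted p of 0.0743 (limma). With quantile normalization repeated the difference was -0.33 and passed (adjusted p = 0.0458, at the low end of a range up to 0.271). Gbp8 read 1505 and 1687 in WT and 1457 and 1478 in the KO arrays, also without overlap. Its log2 difference was -0.12 (95% interval -0.32 to 0.08; adjusted p = 0.513).

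Their neighbour Gbp4, which is not among the 10 genes, read 1364 and 1410 in WT and 1606 and 1437 in the KO arrays (log2 difference 0.13, adjusted p = 0.457), with both KO values above both WT values. A probe set shared by Gbp4, Gbp6, Gbp8, Gbp9, Gbp10 and Gbp11 read between 737 and 757 in all 4 arrays, with a difference of -0.00 (95% interval -0.18 to 0.18). These paralogs are alike in sequence, and how far their probes capture each other's RNA was not tested.

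**Figure D2:**
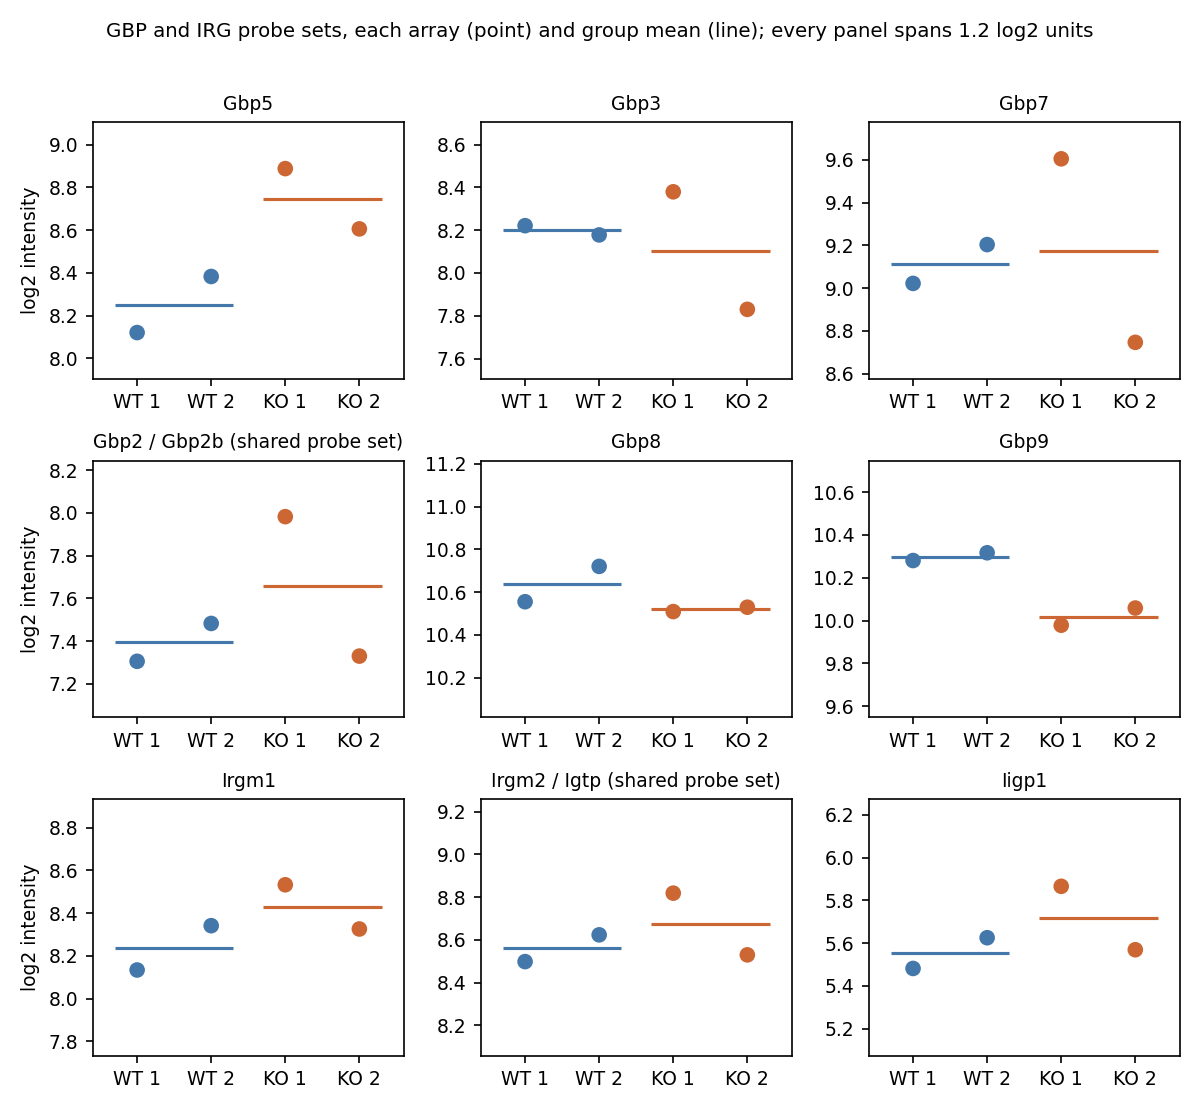
Log2 intensity (vertical axis) of 7 genes and 2 shared probe sets in each of the 4 arrays, WT in blue and labelled Id2 KO in orange, with lines at the group means; every panel spans 1.2 log2 units around its own centre. Gbp5 is the single called gene, Gbp3 and Gbp7 have their WT points between the KO points, and Gbp8 and Gbp9 have both KO points below the WT points.

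Among the IRGs no difference passed the test. Irgm1, which keeps effector IRGs inactive and supports lysosomal and mitochondrial homeostasis, had intensities of 281 and 324 in the WT arrays and of 370 and 321 in the KO arrays. The groups overlapped, since the second KO array lay just below the second WT array. The log2 difference was 0.19 (95% interval -0.05 to 0.43; limma, adjusted p = 0.354), and it kept its sign under all 15 alternatives, between 0.09 and 0.30.

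The probe set shared by Irgm2 and Igtp read 362 and 395 in WT and 452 and 370 in the KO arrays, with overlap. Its log2 difference was 0.11 (95% interval -0.14 to 0.37; adjusted p = 0.651 among all probe sets). Iigp1, the effector IRG, was dim in all 4 arrays, at 44.7 and 49.4 in WT and 58.3 and 47.5 in the KO arrays, between percentiles 12.8 and 20.2 of all genes. Tested without a filter, it differed by 0.16 (limma, adjusted p = 0.592) and was not called. The size of this difference is uncertain, because no background was measured.

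Over the 6 tested members, 3 differences were above 0 and 3 below, with a median of -0.02, beside 0.01 over all genes tested. Their groups did not overlap for 3 of 6, Gbp5, Gbp8 and Gbp9, beside 50.7% of all genes tested. Gbp5 was the 1 with higher values (beside 27.9%) and Gbp8 and Gbp9 the 2 with lower values (beside 22.8%). The median moved to 0.24 when KO replicate 2 was left out. At an unadjusted p under 0.05, Gbp5 and Gbp9 passed, 2 of 6, beside 20.7% of all genes.

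**Figure D3:**
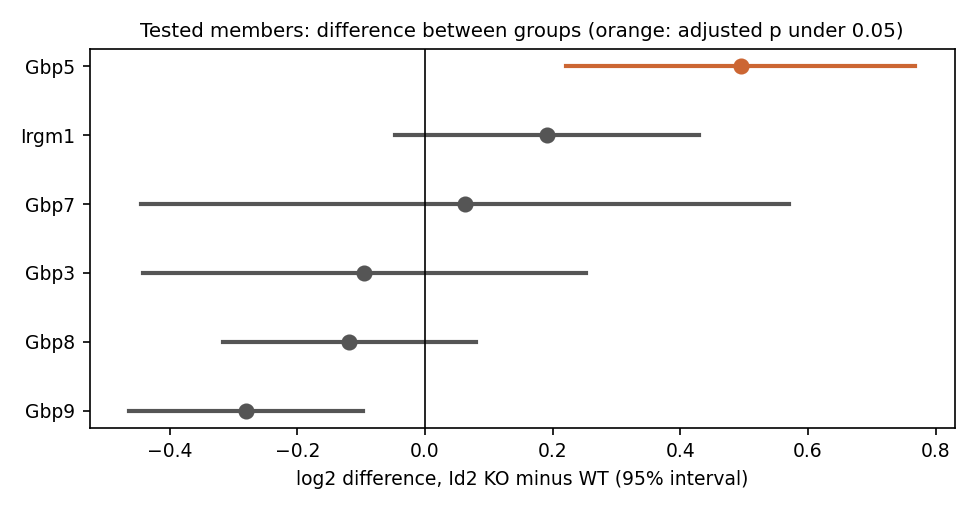
Log2 difference, Id2 KO minus WT (horizontal axis), with its 95% interval from the limma fit for the 6 tested members. The interval of Gbp5 (0.22 to 0.77) lies above 0 and that of Gbp9 (-0.46 to -0.10) below it, while those of Irgm1, Gbp7, Gbp3 and Gbp8 span 0.

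The KO arrays differed from each other in this family, a pattern chosen after its values were seen and not tested. Gbp7 was 1.81-fold, the probe set of Gbp2 and Gbp2b 1.57-fold, Gm12250 (the effector IRG Irgb10) 1.5-fold and Gbp3 1.46-fold as bright in KO replicate 1 as in KO replicate 2. On the log2 scale the differences of Gbp7 and Gbp3 were 0.86 and 0.55, at the 99.9th and 99.7th percentile of all genes tested. Gbp5 differed by 0.28 and Irgm1 by 0.21 in the same direction (percentiles 94.9 and 88.8). Gbp8 and Gbp9 differed by -0.02 and -0.08.

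Counting every probe set that names a GBP, an IRG or a related GTPase of the fixed list, 23 lay above the filter level. Of these, 16 were brighter in KO replicate 1, beside 54.8% of all 16273 probe sets, with a median difference of 0.21 beside 0.02. In 9 of the 23 the difference was larger in size than 0.26, the 90th percentile over all probe sets. The matching count between the WT arrays was 1 of 23 past their 90th percentile of 0.23. In 7 of the 23, KO replicate 1 lay above and KO replicate 2 below both WT arrays, beside 6.11% of all probe sets. The 7 were the probe sets of Gbp3, Gbp7, Gm12250, Ifi47 with Olfr56, Tgtp1 with Tgtp2 (2 probe sets) and a group of genes with Gvin1. Several of these share a gene or sequence and are not independent.

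Other gene groups differed between the same 2 arrays. Of all genes tested, 55.4% were higher in KO replicate 1, with a median difference of 0.02. All 11 tested cell cycle genes were higher there (median 0.38), as were 17 of 21 type I interferon-induced genes (median 0.12) and 14 of 20 interferon-γ-induced genes (median 0.10). Of the neutrophil markers 3 of 11 were higher (median -0.55). The counts were 0 of 7 tested B cell markers (median -0.15) and 0 of 7 general conventional dendritic cell genes (median -0.07). Their part in the GTPase values was not tested.

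**Figure D4:**
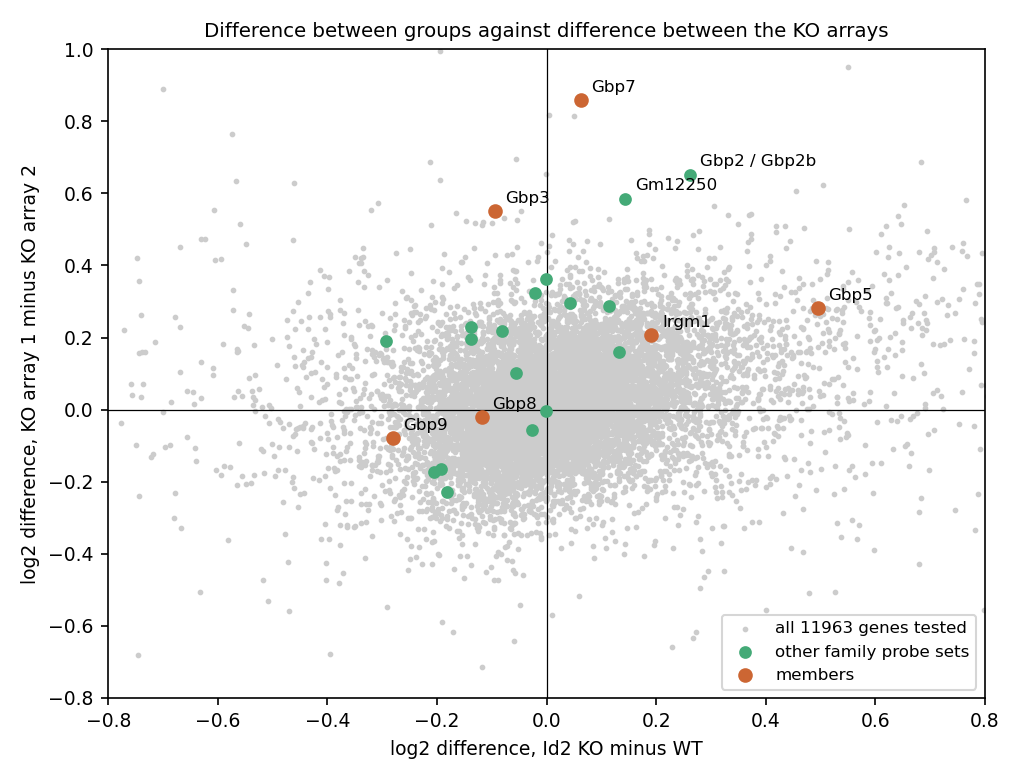
Log2 difference between the groups (horizontal axis) against the difference between the 2 KO arrays (vertical axis), for all genes tested (grey; those beyond the axis limits are not drawn), the 6 tested members (orange) and other probe sets of the family above the filter level (green). Gbp7 at 0.86 and Gbp3 at 0.55 stand high on the vertical axis with group differences near 0, while Gbp5 lies to the right at 0.49.

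The remaining GTPases gave no call. Of 20 related genes listed, 10 had a probe set of their own and 6 were tested. Of these 6, 0 changed (limma, beside 8.04% of all genes tested) and 1 had an unadjusted p under 0.05 (beside 20.7%). The antiviral dynamin-like GTPase gene Mx2 was at -0.29 (adjusted p = 0.0966), Irgq at -0.18, Gm12250 at 0.14 and Mx1 at -0.14, with a list median of -0.08. Mx2 was called lower without KO replicate 1 and Gm12250 higher without KO replicate 2. Probe sets shared by Tgtp1 and Tgtp2 (effector IRGs of the Irgb6 type) differed by -0.02 and -0.00, that of Ifi47 with Olfr56 by 0.04, and those of 9930111J21Rik1 with 9930111J21Rik2 by -0.19 and -0.21. In all, 0 of the 23 family probe sets above the filter level passed when every probe set was tested, beside 7.12% of all, and 8 were above 0 and 15 below.

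Upstream of the family, genes of interferon-γ signalling were not called. Of 14 listed genes 12 were tested and 0 passed (limma, beside 8.04% of all genes tested), with a median of -0.04. At an unadjusted p under 0.05, 4 passed, beside 20.7% of all genes tested. Irf1, the interferon-induced activator of GBP and IRG genes, had log2 intensities of 9.25 and 9.35 in WT and of 9.04 and 8.86 in the KO arrays, without overlap. Its difference of -0.35 (95% interval -0.56 to -0.14, not adjusted) missed the threshold (adjusted p = 0.0534), and Irf1 was called lower with genes above the 60th percentile, with quantile normalization repeated, with 16 added to each intensity and without KO replicate 1. Both of its WT values lay above both KO values, the reverse of Gbp5.

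The phosphatase gene Ptpn2, which restrains the pathway, was at 0.28 (adjusted p = 0.181), the kinase gene Jak2 at 0.25 (adjusted p = 0.1) and the feedback inhibitor gene Socs3 at -0.18 (adjusted p = 0.23). The receptor genes Ifngr1 (-0.05, 95% interval -0.23 to 0.13) and Ifngr2 (-0.00, -0.19 to 0.18) were near 0. Ifng lay below the filter, with log2 intensities of 6.90 and 6.69 in WT and 6.61 and 6.62 in the KO arrays.

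Among other genes that interferon-γ induces, some were called. Of 23 listed genes 20 were tested, of which 4 rose and 1 fell, with a median of 0.07. Of all genes tested, 5.53% rose and 2.52% fell. The chemokine genes Cxcl9 (0.62, adjusted p = 0.0145) and Cxcl10 (0.45, adjusted p = 0.0463), the MHC class I transactivator gene Nlrc5 (0.42, adjusted p = 0.015) and the adhesion gene Icam1 (0.41, adjusted p = 0.0399) rose. Fgl2, a fibrinogen-like secreted protein gene, fell by 0.34 (adjusted p = 0.0316). Cxcl9 was at 7.54 and 7.70 in WT and at 8.43 and 8.07 in the KO arrays, without overlap and with KO replicate 1 highest, the layout of Gbp5. The count of 5 dropped to 0 without WT replicate 1, 2 without WT replicate 2 and 3 without either KO replicate in turn. The immunoproteasome genes Psmb8 (0.08), Psmb9 (0.01) and Psmb10 (-0.08) did not pass.

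Among genes that type I interferon induces, 1 call was made. Of 21 tested genes 1 fell and 0 rose, with a median of -0.10 and 15 of 21 differences below 0. Of all genes tested, 2.52% fell and 5.53% rose. Rsad2, the antiviral enzyme viperin, fell by 0.53 (adjusted p = 0.0064), a call that was lost without WT replicate 1. The RNase gene Isg20 (-0.38), the oligoadenylate synthetase family genes Oasl2 (-0.31) and Oas3 (-0.30) did not pass, with adjusted p between 0.071 and 0.0751, but with quantile normalization repeated all 3 were called lower, as were Isg20 and Oasl2 without KO replicate 1. Of 8 tested type I signalling genes 0 changed and 1 had an unadjusted p under 0.05 (limma, beside 8.04% and 20.7% of all). Among them Irf7 was at -0.31 (adjusted p = 0.162), and was called lower without KO replicate 1, Irf9 at -0.20, the interferon-induced deubiquitinase-like gene Usp18 at 0.15 and Tyk2 at 0.09. Whether the interferon-γ and type I lists differ from each other was not tested.

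**Figure D5:**
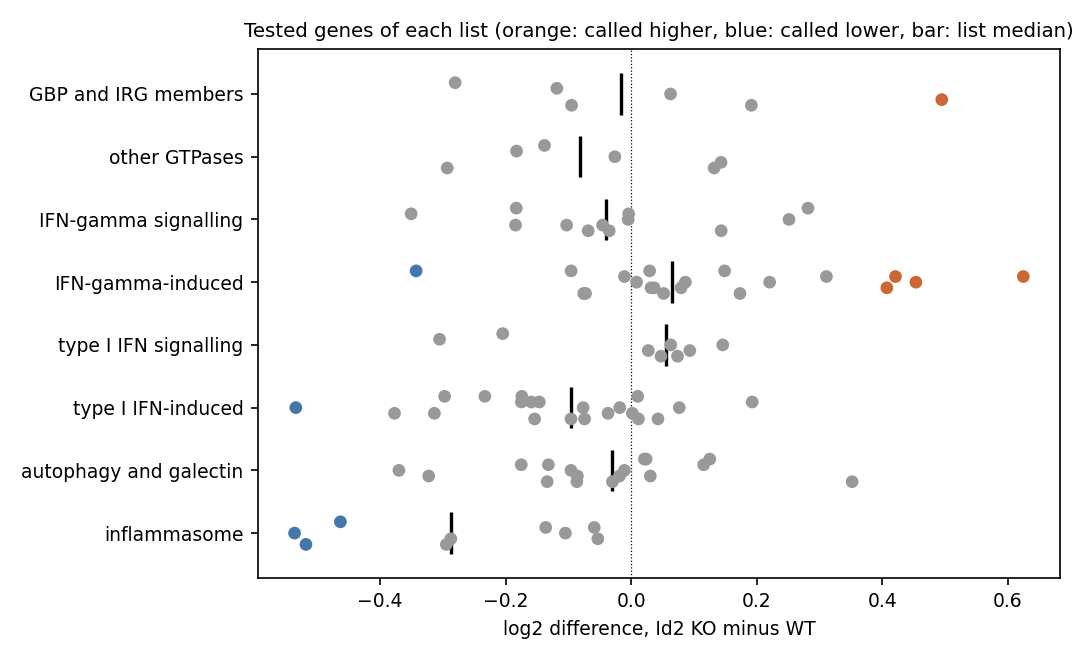
Log2 difference, Id2 KO minus WT (horizontal axis), of the tested genes of 8 lists (rows; vertical position within a row has no meaning), with called genes in orange (higher) or blue (lower) and a bar at each list's median. Called genes are 1 of the GBP and IRG members, 5 interferon-γ-induced genes, 1 type I-induced gene and 3 inflammasome genes, and the inflammasome median is -0.29.

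Partners of the GTPases downstream were also examined. Of 9 tested genes of the inflammasome and pyroptosis, 3 fell and 0 rose, with a median of -0.29. Of all genes tested, 2.52% fell and 5.53% rose. Casp4, the caspase that senses lipopolysaccharide released with the help of GBPs, fell from 8.59 and 8.90 to 8.22 and 8.20 (-0.54, adjusted p = 0.0159). The cytokine genes Il1b (-0.52, adjusted p = 0.00499) and Il18 (-0.46, adjusted p = 0.00773) fell as well, while the DNA sensor gene Aim2 was at -0.29 (adjusted p = 0.115). Nlrp3 (-0.10) and Gsdmd (-0.14), which encodes the pore former, did not pass. Neutrophil and monocyte markers, whose cells can also carry these RNAs, were lower in the same arrays with the sums given above, and their part was not tested. Casp4 lost its call without WT replicate 2 and Il18 without WT replicate 1.

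The autophagy proteins that place GBPs and IRGs on vacuoles, with the galectins that mark damaged ones, counted 0 changed among 17 tested (limma). Over all genes tested 8.04% changed. The list median was -0.03, and 3 genes had an unadjusted p under 0.05, beside 20.7% of all genes tested. The ubiquitin-like conjugation genes Atg3 (-0.10), Atg5 (0.12), Atg7 (0.02) and Atg12 (-0.13) did not pass. Gabarapl1 (-0.37, adjusted p = 0.0728) and Map1lc3a (-0.32, adjusted p = 0.0665) were called lower with quantile normalization repeated, Gabarapl1 also without KO replicate 1 and Map1lc3a also without KO replicate 2. The ubiquitin ligase gene Traf6 was at 0.35 (adjusted p = 0.081) and Gabarapl2 at -0.18.

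The ISRE, found upstream of all 7 members with a listed start, did not go with 1 direction over all genes. Of 319 tested genes with an ISRE upstream of a listed start, 24 were higher and 12 lower (11.3% called), with a median of -0.01. Over the 9573 tested genes with a listed start, 539 were higher and 239 lower (8.13% called), with a median of 0.01. Of 682 genes with a GAS, 36 were higher and 17 lower (7.77% called). Of 42 genes with both, 4 were higher and 3 lower (16.7% called). No test was made of these shares.

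The 5 tested genes outside the lists whose centred log2 profiles over the 4 arrays lay closest to that of Gbp5 were Eri1, Tdp2, Dynll2, Ipo11 and Fzr1, with root mean square distances of between 0.016 and 0.034. With 4 arrays such a likeness describes these samples only.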

How the data were processed

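The deposited values are linear intensities, 1 for each of 28853 probe sets on each array. The authors used Affymetrix Expression Console and RMA, per the submitters' processing notes, whose order and versions are not given in the sources used here, nor is a genome build. Intensities of 5.19 to 18624 and array medians of 128 to 134 fit a linear scale; how RMA output, usually log2, was returned to it is not stated. RMA sets the arrays to a common scale, so a change in total RNA is largely removed.

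Log2 was taken without a pseudocount. The platform's annotation named 1 symbol for 21789 of them, several for 1621 and none for 5443. A gene was read from its brightest probe set. The 11963 genes above the 40th percentile were fitted with limma 3.58.1 in R 4.3.3 (Id2 KO minus WT, 2 residual and 6.77 prior degrees of freedom, two-sided, Benjamini-Hochberg over all genes, threshold 0.05). Intervals are 95% and unadjusted. With 2 arrays a group an exact permutation test cannot pass, and precision is limited by the number of arrays. The fit was run on simulated normal values drawn with the fit's own spreads, the same in both groups for each gene. That run therefore does not show how well the fit suits these data. Gbp7 had an SD of 0.13 in WT and 0.61 in the KO arrays, so the simulation does not cover such genes.

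Members and gene lists were chosen with earlier results of these data known. Named genes are all members, Id2, and from each pathway list the called genes and the 4 largest differences, with a few others named after their values were seen. One listed interferon-γ signalling gene is not reported here. Promoters are RefSeq sequences of GRCm38.p6. Alternatives covered the filter, scaling, probe set choice, moderation, a pseudocount of 16, X- and Y-linked genes, a replicate block and each array left out.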

Additional observations from a re-analysis of the deposited data

How the results depend on the processing

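Over all genes, the 962 calls became 459 and 627 without WT replicate 1 and 2, and ranged from 459 to 1171 with 1 array left out. The count of members called, 1, was 0 with no filter and with all probe sets tested, 2 with quantile normalization repeated and between 0 and 2 with 1 array left out. With quantile normalization repeated the counts were 1 for interferon-γ signalling, 3 for interferon-γ-induced, 4 for type I-induced and 2 for autophagy and galectin genes. Interferon-γ signalling also gave 1 with genes above the 60th percentile and with 16 added, and interferon-γ-induced genes gave 2 with no filter. With 1 array left out the counts ranged between 0 and 1 for other GTPases, interferon-γ signalling, type I signalling and autophagy genes, 0 and 3 for interferon-γ-induced genes, 0 and 3 for type I-induced genes and 2 and 4 for inflammasome genes, and the members' median between -0.17 and 0.24. Reversed differences were those of Gbp3 without KO replicate 2 (0.18) and of Gbp7 without WT replicate 1 (-0.03) and without KO replicate 1 (-0.37). Gbp7 passed without KO replicate 2 (0.49). The cause of these changes was not tested. Gbp8, Gbp9, Irgm1 and Gbp5 kept their sign under all alternatives. A lone array in a group is assumed to vary like the other group.

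Same-numbered arrays do not pair by the labels, and their deviations correlated at -0.144 over genes. With the replicate block the counts were 684 over all genes, 0 for members (Gbp5 adjusted p = 0.102) and 3 for interferon-γ-induced genes. With crossed numbers, chosen after seeing the data, the replicate block gave 1380 over all genes, 1 for members, 1 for other GTPases, 2 for interferon-γ signalling, 4 for type I-induced, 3 for autophagy and 5 for inflammasome genes.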
